A study of Mus musculus with 24 samples.

Results

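Cry1, Cry2, Bhlhe40, Bhlhe41 and Ciart are 5 genes of the mouse liver clock whose proteins repress the activator CLOCK:BMAL1 and that do not belong to the Period family. They were taken by symbol, 1 row each, from a table of read counts for 35304 genes, and all 5 were among the 17275 genes with enough counts to be tested. Their RNA was followed in 24 liver libraries of C57BL/6 mice aged 8 to 12 weeks under night restricted feeding. HepKO mice carried loxP-flanked Bmal1 (gene symbol Arntl) on both chromosomes and 1 copy of Alb::Cre, a Cre recombinase driven by the albumin promoter (Alb::Cre_+/0 Bmal1 fl/fl). HepWT mice carried the same loxP-flanked alleles without Cre (Alb::Cre_0/0 Bmal1 fl/fl), so the controls were not mice with unmodified Bmal1. Whole liver was sampled at 6 zeitgeber times (ZT, counted in hours from lights on), namely ZT 2, 6, 10, 14, 18 and 22, which makes 12 groups of 2 libraries. The sources used here do not say whether the 2 libraries of a group came from separate animals, and p-values then measure only the spread between these libraries, which may be technical.

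CLOCK and BMAL1 bind E-boxes, DNA elements with the letters CACGTG, and activate the genes of their own repressors, which closes a feedback loop of about a day. The cryptochromes CRY1 and CRY2 bind the activator directly, alone or with Period proteins, and CRY1 is a main repressor of the late phase of the cycle. BHLHE40 and BHLHE41, also called DEC factors, are basic helix-loop-helix proteins that occupy E-boxes themselves, and CIART (also called CHRONO) binds BMAL1. Cry1 transcription is also known to be held down by the REV-ERB receptors and raised by ROR receptors, so it does not depend on E-boxes alone.

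Some libraries stood apart. Total counts were 12997689 to 16910415 in the replicate 2 libraries of HepKO at ZT6, ZT10, ZT14, ZT18 and ZT22, and 23583035 to 30677807 in the other 19 libraries, so low depth occurred in HepKO alone. In HepWT the library with replicate number 2 was lower than number 1 at 6 of 6 times for Cry1 (mean log2 difference -0.20) and Bhlhe41 (-0.53) and at 5 of 6 for Cry2 (-0.24). With the HepWT libraries of number 1 alone Cry1 was higher in HepKO by 1.61 and Cry2 by 0.19, and with those of number 2 alone by 1.81 and 0.42 (log2), all 4 with an adjusted p under 0.05 (edgeR).

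The genes are given first by position and promoter, because the deleted factor acts on E-boxes. In GENCODE M21 (GRCm38), Cry1 (ENSMUSG00000020038) spans chr10:85131700-85185064 on the minus strand and Cry2 (ENSMUSG00000068742) chr2:92403646-92434043 on the minus strand. Bhlhe40 (ENSMUSG00000030103) lies on the plus strand at chr6:108660629-108666925, and Bhlhe41 (ENSMUSG00000030256) on the minus strand at chr6:145858243-145865558. Ciart (ENSMUSG00000038550) spans chr3:95878503-95882251 on the minus strand. All 5 are protein-coding genes, and counts refer to the whole gene. RefSeq promoters (GRCm38.p6, 250 bases before the start) were matched for 4 of the 5 genes. The letters CACGTG occurred 3 times in the Ciart promoter, beginning 116, 58 and 44 bases before the start. They occurred 1 time in the Bhlhe41 promoter (153 bases before the start), 1 time in the Cry1 promoter (60 bases) and 0 times in the Cry2 promoter. Of 32851 mouse promoters of the same length, 6.02% held CACGTG at least 1 time and 0.0609% at least 3 times. The related letters CACGTT, searched like the others on both strands, occurred in the Cry1 promoter 79 bases and in the Cry2 promoter 166 bases before the start, and in 3.85% of all promoters. Neither AGGTCA, the half-site of ROR and REV-ERB receptors (14% of all promoters), nor TTATGTAA, the D-box of DBP and its relatives (0.819%), occurred in these 4 windows. A match describes the letters of the window and not a site shown to be bound. The sequences run 5′ to 3′ on the strand of the gene, without bases that any annotated transcript covers, and CACGTG is in capitals. Ciart is printed from chr3:95882252-95882478, Bhlhe41 from chr6:145865559-145865670, Cry1 from chr10:85185065-85185304 and Cry2 from chr2:92434070-92434319, all on the minus strand.
Ciart: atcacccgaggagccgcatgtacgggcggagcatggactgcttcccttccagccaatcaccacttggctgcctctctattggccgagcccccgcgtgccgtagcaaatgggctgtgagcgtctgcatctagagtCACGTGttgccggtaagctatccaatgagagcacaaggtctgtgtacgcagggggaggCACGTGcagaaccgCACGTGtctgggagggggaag
Bhlhe41: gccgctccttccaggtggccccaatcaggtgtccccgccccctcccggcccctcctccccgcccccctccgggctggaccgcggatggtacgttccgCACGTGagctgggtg
Cry1: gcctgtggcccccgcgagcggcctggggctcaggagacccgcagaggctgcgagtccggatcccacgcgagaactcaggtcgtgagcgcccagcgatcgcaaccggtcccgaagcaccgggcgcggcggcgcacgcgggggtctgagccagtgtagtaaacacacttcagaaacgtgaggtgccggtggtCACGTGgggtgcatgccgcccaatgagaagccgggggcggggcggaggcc
Cry2: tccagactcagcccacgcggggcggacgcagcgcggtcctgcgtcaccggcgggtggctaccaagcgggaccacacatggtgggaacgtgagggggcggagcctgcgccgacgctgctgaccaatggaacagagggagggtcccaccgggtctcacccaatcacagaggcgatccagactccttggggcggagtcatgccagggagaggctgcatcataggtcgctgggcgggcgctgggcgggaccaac

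Averaged over the day, Cry1 and Cry2 were higher and Bhlhe41 and Ciart lower in HepKO liver, while Bhlhe40 did not pass the test. These 4 of 5 calls, 2 in each direction, stand beside 26.5% of all tested genes called in the same comparison, 13.2% higher and 13.3% lower in HepKO (edgeR's quasi-likelihood test, Benjamini-Hochberg adjusted p under 0.05 over 17275 genes). The median difference was 0.11 over the 5 genes and -0.01 over all tested genes (log2, HepKO minus HepWT). Levels are given in CPM, a unit for the share of each gene in the counts of its library after TMM scaling, and an SD taken over all 12 libraries of a genotype includes the change over the day. Between genes, levels were compared as CPM per kilobase of exon. In HepWT, Bhlhe40 was highest with 15.5 ± 7.53 CPM per kilobase (SD, n = 12), followed by Cry1 with 7.43 ± 5.34, Cry2 with 4.63 ± 1.10, Ciart with 2.75 ± 3.34 and Bhlhe41 with 0.296 ± 0.330. Every pair of neighbours in that order overlapped in range. In HepKO, Cry1 led with 18.5 ± 1.57 CPM per kilobase, ahead of Bhlhe40 with 14.9 ± 4.74, Cry2 with 5.57 ± 0.399, Ciart with 0.308 ± 0.289 and Bhlhe41 with 0.0457 ± 0.0445. There, the libraries of Bhlhe40 (from 10.2) and Cry2 (up to 6.20) did not overlap, nor did those of Cry2 (from 4.71) and Ciart (up to 0.831). The ranges of Cry1 and Bhlhe40, and those of Ciart and Bhlhe41, did overlap.

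**Figure D1:**
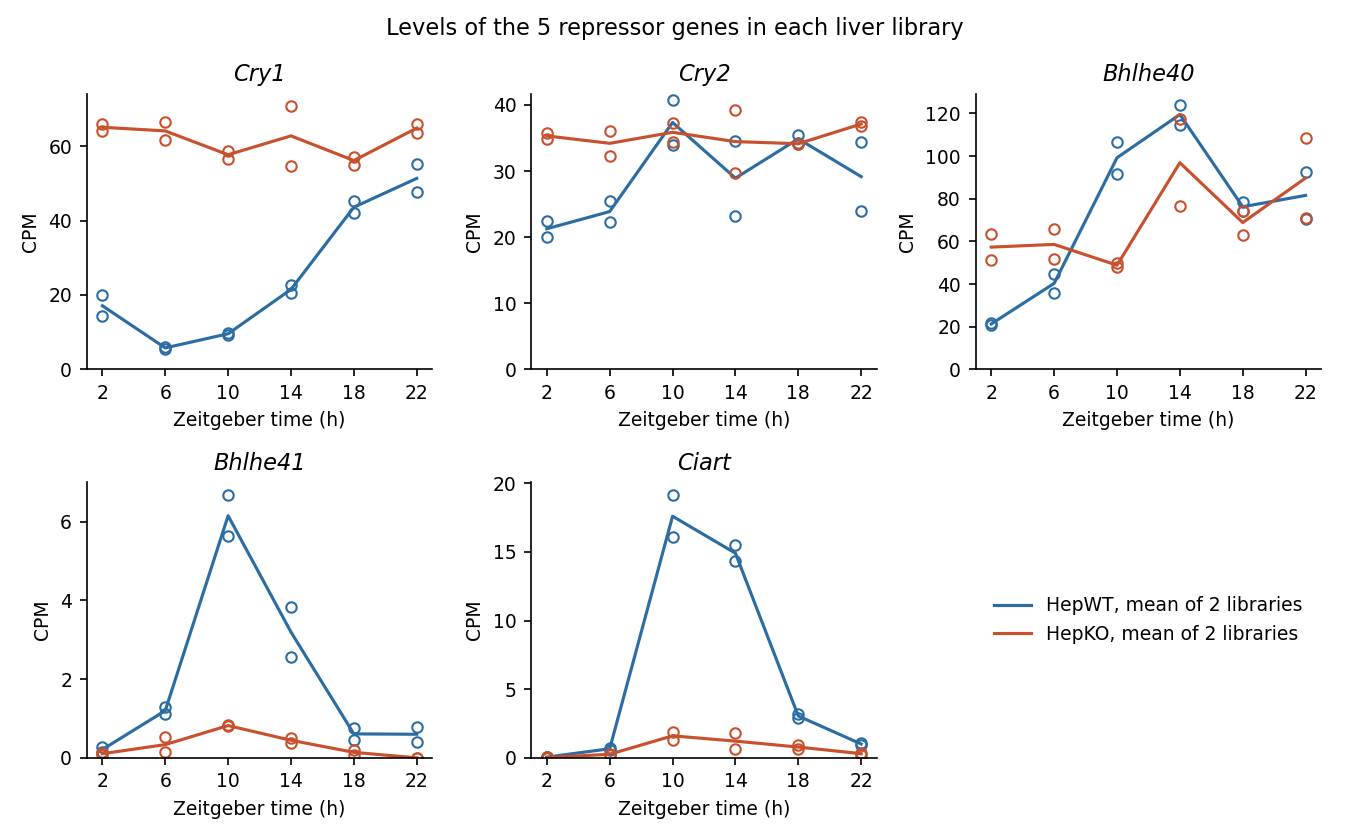
Level in CPM (y axis, linear, from 0, with its own scale for each gene) against zeitgeber time in hours (x axis). Points are single libraries and lines join the means of the 2 libraries of a group; Cry1 in HepKO stays between 54.7 and 70.9 CPM at all 6 times, while Ciart in HepWT climbs to 19.1 CPM at ZT10 and in HepKO stays at or under 1.88 CPM.

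Cry1 lost its daily trough. In HepWT the library pairs held 20.0 and 14.2 CPM at ZT2, 6.08 and 5.45 at ZT6, 9.86 and 9.28 at ZT10, 22.6 and 20.4 at ZT14, 45.2 and 42.1 at ZT18, and 55.1 and 47.6 at ZT22. In HepKO they held 66.1 and 64.2 CPM at ZT2, 66.6 and 61.7 at ZT6, 58.8 and 56.7 at ZT10, 54.7 and 70.9 at ZT14, 57.2 and 55.1 at ZT18, and 63.7 and 66.1 at ZT22. All HepKO libraries were thus high, near or above the nightly maximum of HepWT: 10 of 12 exceeded the highest HepWT library, and 11 of 12 HepWT libraries lay below the lowest HepKO library. The mean was 24.8 ± 17.8 CPM in HepWT and 61.8 ± 5.26 CPM in HepKO (SD, n = 12 each), and the coefficient of variation over the day was 71.9% in HepWT and 8.51% in HepKO. The fitted difference over the day was 1.71 ± 0.06 (log2, SE), or 3.26-fold higher in HepKO, with adjusted p = 1.15e-12 by edgeR's quasi-likelihood test.

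The Cry1 difference depended on the time of day. It was 11.1-fold at ZT6 (log2 3.47 ± 0.15, adjusted p = 7.24e-10), when HepWT was at its trough, and also passed at ZT2 (1.93 ± 0.14, adjusted p = 9.97e-07), ZT10 (2.59 ± 0.15, adjusted p = 7.14e-09) and ZT14 (1.54 ± 0.14, adjusted p = 1.36e-06), each by edgeR's test. At ZT18 the log2 difference was 0.37 ± 0.13 (adjusted p = 0.172) and at ZT22 0.34 ± 0.13 (adjusted p = 0.299, edgeR), and neither passed. The test of the difference between times, the interaction of genotype with time, gave adjusted p = 2.70e-07 for Cry1 (edgeR), with the differences spread over 3.14 log2 units from the smallest to the largest. That interaction was called in Cry1 and Bhlhe40, 2 of the 5 genes, beside 1.12% of all tested genes.

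**Figure D2:**
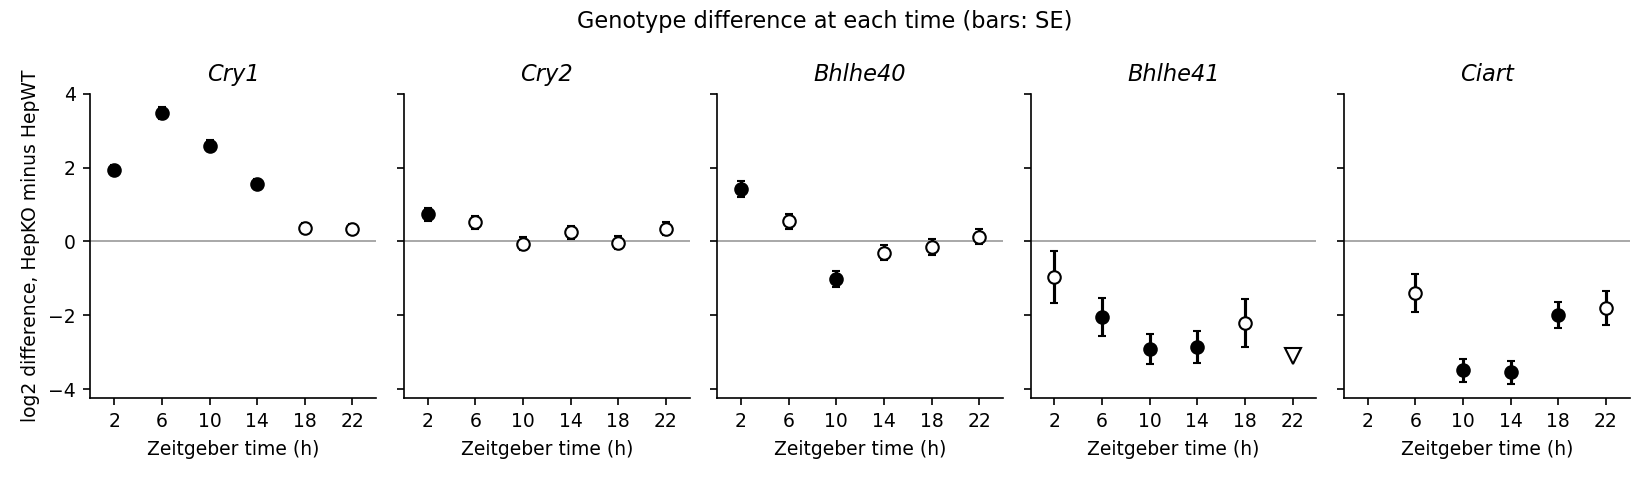
Fitted log2 difference, HepKO minus HepWT (y axis), at each zeitgeber time in hours (x axis), with bars of 1 SE. Filled points passed edgeR's test at that time and open points did not. The triangle for Bhlhe41 at ZT22 marks a lower bound on the decrease and is drawn open, though that test passed. Ciart at ZT2 has no point because both groups were at or under 3 counts. Cry1 runs from 0.34 at ZT22 to 3.47 at ZT6, and Bhlhe40 from 1.43 at ZT2 to -1.02 at ZT10.

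Cry2, the closest relative of Cry1, changed far less. In HepWT its pairs held 20.1 and 22.5 CPM at ZT2, 25.5 and 22.3 at ZT6, 40.7 and 34.0 at ZT10, 34.6 and 23.2 at ZT14, 35.5 and 34.3 at ZT18, and 34.4 and 23.9 at ZT22. In HepKO they held 34.9 and 35.8 CPM at ZT2, 36.1 and 32.3 at ZT6, 37.3 and 34.4 at ZT10, 29.7 and 39.2 at ZT14, 34.1 and 34.1 at ZT18, and 36.8 and 37.5 at ZT22. The HepWT libraries were low at ZT2 and ZT6 and unequal within the pairs of ZT14 and ZT22, and the genotypes overlapped: 6 of 12 HepWT libraries lay below the lowest HepKO library and 1 above the highest. Cry2 averaged 29.2 ± 6.94 CPM in HepWT and 35.2 ± 2.52 in HepKO (SD, n = 12 each), a fitted difference of 0.29 ± 0.07 (log2, SE), 1.23-fold higher in HepKO, with adjusted p = 0.00565 (edgeR). Without the 5 HepKO libraries of low depth, the Cry2 difference was again 0.29 but no longer passed (adjusted p = 0.0521, edgeR). At single times Cry2 passed at ZT2 (0.73 ± 0.18, adjusted p = 0.0441), and that call was lost when any 1 of 14 libraries was left out (0.66 to 0.82, adjusted p 0.0538 to 0.211, edgeR), among them all 4 ZT2 libraries. The interaction with time did not pass for Cry2 (adjusted p = 0.465, edgeR).

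Because both cryptochromes were counted in the same libraries, their ratio does not depend on library scaling. In HepWT the ratio of Cry1 to Cry2 counts ran from 0.239 at ZT6 to 1.99 at ZT22, with a median of 0.766 over 12 libraries, an 8.33-fold range. The HepWT pairs were 0.996 and 0.632 at ZT2, 0.239 and 0.245 at ZT6, 0.242 and 0.273 at ZT10, 0.652 and 0.879 at ZT14, 1.27 and 1.23 at ZT18, and 1.60 and 1.99 at ZT22. In HepKO it ran from 1.57 to 1.91, with a median of 1.78 and a 1.21-fold range, so Cry1 counts exceeded Cry2 counts in all 12 HepKO libraries. The ratio is not per length and has no test here.

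**Figure D3:**
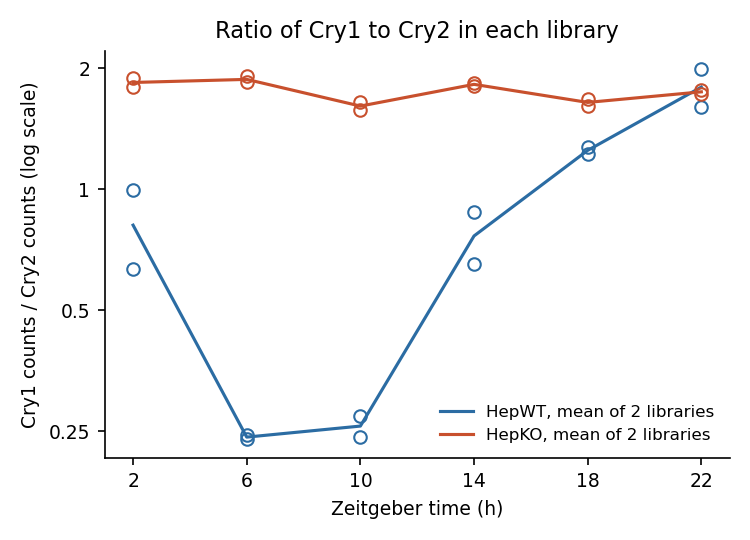
Ratio of Cry1 to Cry2 counts in each library (y axis, log scale) against zeitgeber time in hours (x axis), with lines through the means of 2 libraries. HepWT falls to 0.239 at ZT6 and reaches 1.99 at ZT22, and HepKO stays between 1.57 and 1.91.

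Bhlhe40, which encodes DEC1, was called at single times but not over the day. In HepWT the pairs held 20.8 and 21.8 CPM at ZT2, 35.7 and 44.9 at ZT6, 107 and 91.8 at ZT10, 124 and 115 at ZT14, 78.2 and 74.2 at ZT18, and 92.6 and 70.5 at ZT22. In HepKO they held 51.0 and 63.6 CPM at ZT2, 65.6 and 51.6 at ZT6, 49.7 and 48.0 at ZT10, 117 and 76.6 at ZT14, 63.2 and 74.4 at ZT18, and 71.1 and 108 at ZT22. The genotypes did not overlap at ZT2 and ZT6, where all HepKO libraries were higher, nor at ZT10, where both were lower, and they overlapped at ZT14, ZT18 and ZT22. Over the day the mean was 73.0 ± 35.4 CPM in HepWT and 70.0 ± 22.3 in HepKO (SD, n = 12 each), with a fitted difference of 0.11 ± 0.09 (log2, SE, adjusted p = 0.408, edgeR). By time, Bhlhe40 was 2.69-fold higher in HepKO at ZT2 (1.43 ± 0.22, adjusted p = 0.00139) and 2.03-fold lower at ZT10 (-1.02 ± 0.21, adjusted p = 0.00509, edgeR). The ZT10 call was lost without HepKO ZT10 replicate 1, HepKO ZT10 replicate 2 or HepWT ZT10 replicate 1 (-1.04 to -0.91, adjusted p 0.0572 to 0.0585, edgeR). The interaction with time gave adjusted p = 0.00264 for Bhlhe40 (edgeR), a spread of 2.45 log2 units. With only the HepWT libraries of replicate number 1 or only those of number 2, each fit with 1 HepWT library a time, its adjusted p was 0.0563 and 0.109 (edgeR).

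Bhlhe41, which encodes DEC2, was scarce in HepWT and close to the limit of counting in HepKO. The HepWT pairs held 0.281 and 0.142 CPM at ZT2, 1.29 and 1.11 at ZT6, 6.67 and 5.62 at ZT10, 3.83 and 2.55 at ZT14, 0.766 and 0.450 at ZT18, and 0.784 and 0.413 at ZT22. The HepKO pairs held 0.0779 and 0.131 CPM at ZT2, 0.147 and 0.525 at ZT6, 0.796 and 0.842 at ZT10, 0.375 and 0.516 at ZT14, 0.0808 and 0.198 at ZT18, and 0 and 0 at ZT22. The HepKO values were low throughout and rested on 75 counts in all 12 libraries, against 654 in HepWT. Of 12 HepWT libraries 6 exceeded the highest HepKO library. At each time both HepKO libraries lay below both HepWT libraries. At ZT2 this rested on library scaling, since the replicate 2 libraries of both genotypes held 4 counts. At ZT22, 0 counts in 2 HepKO libraries against 30 in HepWT, set against a floor of 3 counts over the group (0.0703 CPM), make Bhlhe41 at least 8.58-fold lower in HepKO (adjusted p = 0.00520, edgeR); the 95% interval of the ratio of these counts, which also covers the error of the HepWT counts, begins at 6.56-fold. Such floors and intervals cover counting error only, since reads amplified by PCR without molecular identifiers are not independent molecules. Over the day Bhlhe41 averaged 1.99 ± 2.22 CPM in HepWT and 0.307 ± 0.299 in HepKO (SD, n = 12 each; adjusted p = 8.01e-07, edgeR). The fitted difference behind that adjusted p, -2.98 (log2), includes ZT22, where 0 counts set no finite fold. With ZT22 at that bound the difference was -2.34 (log2), or 5.08-fold lower in HepKO, and without ZT22 it was -2.19, or 4.57-fold lower.

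At single times the Bhlhe41 decrease was 7.49-fold at ZT10 (-2.90 ± 0.41, adjusted p = 0.000256), 7.23-fold at ZT14 (-2.85 ± 0.45, adjusted p = 0.000568) and 4.12-fold at ZT6 (-2.04 ± 0.52, adjusted p = 0.0319, edgeR). The ZT6 call was lost without HepKO ZT6 replicate 1, HepWT ZT6 replicate 1 or HepWT ZT6 replicate 2 (-2.15 to -1.20), and the ZT22 call without HepKO ZT22 replicate 1 (adjusted p = 0.139, edgeR). At ZT18, 5 counts in HepKO and 33 in HepWT gave -2.20 ± 0.64 (adjusted p = 0.0712, edgeR), and at ZT2, 6 and 12 counts gave -0.96 ± 0.70 (adjusted p = 0.626, edgeR). Relative to Bhlhe40 in the same library, Bhlhe41 counts amounted to 0.585% to 6.26% in HepWT (median 1.79%) and 0% to 1.76% in HepKO (median 0.245%). The 2 highest HepKO percentages, 1.60% and 1.76%, and the 2 highest of HepWT, 6.26% and 6.13%, all came from ZT10. The interaction with time did not pass for Bhlhe41 (adjusted p = 0.494, edgeR).

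Ciart had the steepest profile of the 5 genes in HepWT and a low one in HepKO. The HepWT pairs held 0.0701 and 0.0355 CPM at ZT2, 0.751 and 0.572 at ZT6, 16.1 and 19.1 at ZT10, 14.3 and 15.5 at ZT14, 3.22 and 2.87 at ZT18, and 0.941 and 1.07 at ZT22. The HepKO pairs held 0.0390 and 0 CPM at ZT2, 0.220 and 0.300 at ZT6, 1.33 and 1.88 at ZT10, 1.80 and 0.631 at ZT14, 0.646 and 0.923 at ZT18, and 0.242 and 0.363 at ZT22. From ZT6 to ZT22 both HepKO libraries of a time lay below both HepWT libraries, whereas they overlapped at ZT2, and 6 of 12 HepWT libraries exceeded the highest HepKO library. The HepWT group mean at ZT10 was 333-fold that at ZT2, where the pair held 3 counts in all. Ciart averaged 6.21 ± 7.55 CPM in HepWT and 0.697 ± 0.653 in HepKO (SD, n = 12 each), and the fitted difference over the day was -2.26 ± 0.32 (log2, SE, adjusted p = 4.46e-05, edgeR), or 4.79-fold lower. Without ZT2, where 1 count in HepKO and 3 in HepWT allow no fold, the difference was -2.44.

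The Ciart decrease was 11.2-fold at ZT10 (-3.48 ± 0.31, adjusted p = 1.84e-06) and 11.6-fold at ZT14 (-3.54 ± 0.32, adjusted p = 1.36e-06, edgeR). It passed at ZT18 as well (3.97-fold, -1.99 ± 0.36, adjusted p = 0.00328), but not without HepKO ZT18 replicate 1 (-1.71, adjusted p = 0.105, edgeR). At ZT6 the difference was -1.40 ± 0.51 (adjusted p = 0.136) and at ZT22 -1.80 ± 0.47 (adjusted p = 0.0717, edgeR), both short of the threshold. The interaction did not pass for Ciart (adjusted p = 0.187, edgeR), though it did without HepKO ZT14 replicate 1 (adjusted p = 0.0156, edgeR), the HepKO library with 48 Ciart counts where its partner had 11. Counted by time, members that passed were 3 of 5 at ZT2, beside 1.86% of all tested genes, 2 at ZT6 (4.96%), 4 at ZT10 (7.71%), 3 at ZT14 (7.64%), 1 at ZT18 (3.79%) and 1 at ZT22 (1.35%). At ZT2 the 3 called members were all higher in HepKO (Cry1, Cry2 and Bhlhe40; 0.944% of all tested genes), and at ZT10 3 of the 4 called members were lower (Bhlhe40, Bhlhe41 and Ciart; 3.98% of all tested genes).

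**Figure D4:**
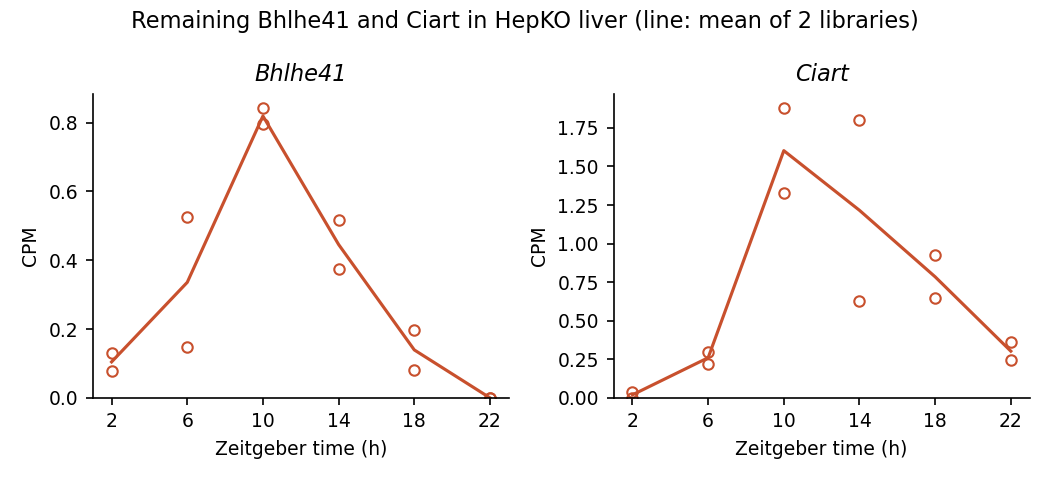
Bhlhe41 and Ciart in HepKO alone, in CPM (y axis, linear, from 0) against zeitgeber time in hours (x axis), on a narrower axis than that used for HepWT. Points are libraries and lines join means of 2; both genes are highest at ZT10, at 0.842 and 1.88 CPM, and Bhlhe41 is at 0 at ZT22.

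A 24 h cosine was fitted within each genotype to compare rhythms. Its amplitude is the log2 distance from the daily mean to the peak. All 5 genes were rhythmic in HepWT, beside 30.3% of all tested genes, and 2 of 5 were in HepKO, beside 14.3%. In HepWT the peaks came in the order Bhlhe41 (ZT 11.4 ± 0.41 h, SE), Ciart (12.96 ± 0.32), Cry2 (14.6 ± 1.03), Bhlhe40 (14.9 ± 0.62) and Cry1 (19.6 ± 0.19). By these fits Cry1 peaked 4.68 ± 0.65 h after Bhlhe40, and Ciart 1.60 ± 0.52 h after Bhlhe41. The SE of a gap treats the 2 genes as independent, though both were measured in the same libraries. Bhlhe41 and Ciart both had their highest HepWT group mean at ZT10, so their order rests on the fitted wave. The gap of 0.29 ± 1.20 h between Cry2 and Bhlhe40 was smaller than its SE, and that of 1.64 ± 1.08 h between Ciart and Cry2 was under 2 SE. HepWT amplitudes were 3.31 ± 0.33 for Ciart (adjusted p = 2.25e-07), 2.13 ± 0.25 for Bhlhe41 (1.71e-06), 1.54 ± 0.08 for Cry1 (1.14e-10), 1.00 ± 0.16 for Bhlhe40 (0.000710) and 0.31 ± 0.08 for Cry2 (0.0265, edgeR). The Cry2 rhythm was lost without HepWT ZT2 replicate 1, ZT2 replicate 2, ZT6 replicate 2 or ZT18 replicate 1 (0.26 to 0.29, adjusted p 0.0537 to 0.108, edgeR).

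In HepKO the rhythm of Cry1 was reduced, while low but rhythmic RNA of Bhlhe41 and Ciart remained in whole liver. Whole liver also holds cells other than hepatocytes, and which cells held the remaining RNA was not tested. The Cry1 amplitude was 0.08 ± 0.08 in HepKO (adjusted p = 0.759), lower than in HepWT by 1.46 ± 0.11 log2 units, and the test of the difference between the rhythms gave adjusted p = 5.80e-08 (edgeR). Cry1 was the 1 member called in that test, beside 1.5% of all tested genes. Ciart kept an amplitude of 2.02 ± 0.47 in HepKO with a peak at ZT 13.1 ± 0.79 h (adjusted p = 0.00786, edgeR), 0.16 ± 0.85 h later than in HepWT. Bhlhe41 kept 2.11 ± 0.46 in HepKO with a peak at ZT 10.5 ± 0.71 h (adjusted p = 0.00342, edgeR), a difference in peak time (HepKO minus HepWT) of -0.89 ± 0.82 h, so neither gene's peak moved by 2 SE. Both HepKO rhythms were lost without the 5 libraries of low depth (Bhlhe41 2.101, adjusted p = 0.0968; Ciart 2.43, adjusted p = 0.0591, edgeR). Leaving out ZT22, where HepKO had 0 counts, gave Bhlhe41 an amplitude of 1.84 in HepKO (adjusted p = 0.00182, edgeR).

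The difference between the rhythms did not pass for the other 4 members, which does not show that their rhythms were alike. Amplitudes in HepKO minus HepWT were -0.64 ± 0.23 for Bhlhe40 (adjusted p = 0.176), -1.29 ± 0.57 for Ciart (0.547), -0.29 ± 0.12 for Cry2 (0.366) and -0.03 ± 0.53 for Bhlhe41 (0.866, edgeR). The value for Bhlhe41 rests on the libraries at 0: without ZT22 it was -0.96 (adjusted p = 0.439, edgeR). Bhlhe40 and Cry2 had no called rhythm in HepKO, with amplitudes of 0.36 ± 0.17 (adjusted p = 0.299) and 0.03 ± 0.08 (adjusted p = 0.977, edgeR). The Bhlhe40 difference passed with DESeq2 (-0.65, adjusted p = 0.0493) and without HepWT ZT22 replicate 1 (-0.73, adjusted p = 0.0417, edgeR).

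**Figure D5:**
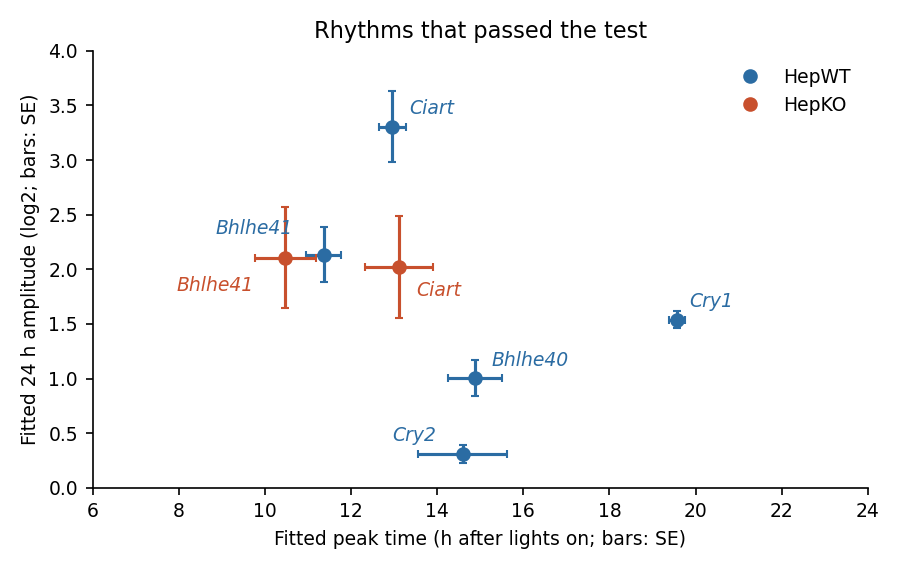
Fitted 24 h amplitude (y axis, log2, from 0) against fitted peak time in hours of zeitgeber time (x axis), for the rhythms that passed edgeR's test, with bars of 1 SE. HepWT holds all 5 genes and HepKO only Bhlhe41 and Ciart, at 10.5 and 13.1 h; Cry1 in HepWT stands last, at 19.6 h.

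For each member the 3 genes with the most similar profile were sought among the 11327 genes whose mean log2 CPM reached 1. Likeness was the root mean square difference of log2 group means over the 12 groups, after removal of each gene's own mean, so a smaller value is closer. Closest to Cry1 (which itself deviated by 1.16 from its mean) among the genes reported here were Lingo4 at 0.42, a leucine-rich repeat membrane protein, and Neu3 at 0.51, a sialidase. Lingo4 averaged 3.04 CPM in HepWT and 5.81 in HepKO, and Neu3 3.10 and 7.32 CPM. Closest to Bhlhe41 (1.68) were Nr1d2 at 0.78, the gene of REV-ERB beta, the metallothionein gene Mt1 at 0.80 and Nrg4 at 0.93, a secreted neuregulin. Closest to Ciart (2.23) were Mfsd2a at 1.02, a lysophospholipid transporter, Per3 at 1.22 and Noct at 1.27, the gene of nocturnin. The neighbours of Bhlhe40 (0.65) were Zc3h8 at 0.31, Tedc2 at 0.33 and Lonrf1 at 0.35, and those of Cry2 (0.25) included the glucuronosyltransferase Ugt1a6b at 0.14 (uncertain, since it shares exons with other Ugt1a genes). Among the members themselves the smallest difference was between Cry2 and Bhlhe40, at 0.53, and the largest between Cry1 and Ciart, at 2.85. The measure is not scaled for amplitude, and 0.53 exceeded the deviation of Cry2 itself (0.25), so it does not show that their profiles are alike. Bhlhe41 and Ciart differed by 1.22, less than the deviation of either (1.68 and 2.23).

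Other clock genes were read from lists of activators, Periods, REV-ERB and ROR receptors, PAR bZIP factors with Nfil3, enzymes that modify or degrade cryptochromes and Periods, and further corepressors. Of 32 tested genes, 8 were higher, 9 lower and 15 not called over the day, beside 13.2% of all tested genes higher and 13.3% lower. The rhythm differed between genotypes in 8 of the 32, beside 1.5% of all tested genes. Arntl itself ranged from 1.27 to 46.0 CPM in HepWT and from 10.3 to 17.7 CPM in HepKO, with means of 23.1 ± 17.7 and 13.7 ± 2.38 (SD, n = 12 each). Averaged on the log scale its difference was 0.04 ± 0.07 (log2, SE, adjusted p = 0.705) and was not called, while its rhythm differed between the genotypes (adjusted p = 0.00208, edgeR). The sources used here do not say which exons the counts come from, so they do not check the deletion. Of the 4 activators 2 were higher, led by Npas2 with 4.30 ± 0.13 (log2, SE, adjusted p = 2.22e-13, edgeR), a paralogue of Clock. Of the 3 Periods Per2 was higher (0.51 ± 0.08) and Per3 lower (-0.69 ± 0.07), and of the 4 tested receptor genes 2 were higher and 2 lower, with Nr1d2 at -1.74 ± 0.07. Of the PAR bZIP list, 1 of 4 was higher and 2 lower, among them Dbp at -1.09 ± 0.09, an activator of D-boxes. Of the 13 genes for cryptochrome and Period turnover, 2 were higher, Fbxl21 (0.55 ± 0.12), a ubiquitin ligase subunit for cryptochromes, among them, and 3 lower. Of the 4 corepressors Cipc, an inhibitor of CLOCK, was lower (-0.29 ± 0.06) and none was higher.

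Among hepatocyte markers Alb, whose promoter drives the Cre, was lower in HepKO (mean 63916 against 25009 CPM), and the other 5 were not called. Markers of other liver cell types were called higher in 3 and lower in 13 of 35 tested genes, beside the same 13.2% and 13.3%. All 7 Kupffer cell markers were lower (median -0.41, log2), with summed levels of 217 to 415 CPM in HepWT and 167 to 356 in HepKO, and of 5 cholangiocyte markers Sox9 and Spp1 were higher and 3 were not called. Of 6 stellate cell markers 1 was higher and 2 were lower (Col1a1 by -1.18 and Col3a1 by -1.14, log2), and of 5 endothelial markers 3 were lower. No defining marker was at 0 in all libraries. In bulk tissue, fewer cells of a type and less RNA per cell cannot be told apart. The part of these cells in the members' differences, and in the rhythms that remained in HepKO, was not tested. Genes on the opposite strand overlap all members but Cry1, with mean levels in either genotype of at most 0.158 CPM for the partner of Cry2, 0.439 for that of Bhlhe40, 0.050 for that of Bhlhe41 and 0.622 for that of Ciart, C920021L13Rik. The sources used here do not state the strand setting of the counting. For Ciart in HepKO (mean 0.697 CPM) the partner was of similar mean level, between 0.450 and 0.923 CPM. By time, the partner in HepKO had group means of 0.679 CPM at ZT2 and 0.703 at ZT10, and Ciart 0.0195 and 1.60 CPM. Whether reads of the partner entered the Ciart counts was not tested.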

How the data were processed

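The authors deposited raw counts in whole numbers, 1 value for each library and gene, not normalized. Per the labels' protocols, 250 ng of total liver RNA went into each stranded library after removal of ribosomal RNA, with 12 PCR cycles and paired-end sequencing. Per the submitters' processing notes, the aligner was STAR 2.4.0i and the build mm10; the sources used here do not name the counting tool, its annotation or its strand setting. Labels gave the genotype and zeitgeber time of the 24 libraries. The column names of the 5 shallow HepKO libraries end in an unexplained suffix.

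The counts of all genes were fitted in edgeR 4.0.16 (R 4.3.3), scaled by TMM and filtered with filterByExpr by group (count 10, total 15). Tests were two-sided quasi-likelihood F tests, adjusted after Benjamini and Hochberg over 17275 genes, with a threshold of 0.05. Genotype differences and their interaction with time came from a fit of the 12 group levels (12 residual degrees of freedom), and rhythms from sine and cosine terms of 24 h in each genotype (18 residual degrees of freedom). SE of log2 differences follow from the F statistic, those of amplitudes and peaks from the delta method. Depth was 12997689 to 30677807 counts per library. Between replicates, chi-square per degree of freedom was 8.86 to 59.2, so over all genes libraries differed by more than counting error. Counting error also limits the precision of Bhlhe41 and Ciart in HepKO, though not alone. The HepKO ZT14 pair held 48 and 11 Ciart counts (1.80 and 0.631 CPM). The scripts were tested on simulated data.

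The members and the gene lists were chosen with earlier results of these data known. Genes named are the 5 members, the 3 closest genes to each, and from each clock list Arntl or those of largest and smallest difference; 3 of these genes are not reported here. Alternatives were DESeq2 (version 1.42.0) as a test and as a source of size factors, voom (limma 3.58.1), looser and stricter filters, a replicate block, an added 12 h harmonic, subsets of libraries, and each library left out, with a lone library assumed to vary like the other groups. The fits without ZT22 (Bhlhe41) and without ZT2 (Ciart) were added after the data were seen.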

Additional observations from a re-analysis of the deposited data

Results flagged for a closer look

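The genotype difference of Cry1 changed with the time of day by a test of that change itself (interaction, adjusted p = 2.70e-07, edgeR). It was 3.47 log2 units at ZT6 and 0.34 at ZT22. The fitted value was higher in HepKO at 6 of 6 times, but the difference did not pass at ZT18 or ZT22. The 24 h rhythm of Cry1 differed between the genotypes (adjusted p = 5.80e-08, edgeR), with amplitudes of 1.54 in HepWT and 0.08 in HepKO. The genotype difference of Bhlhe40 also changed with time (adjusted p = 0.00264, edgeR), from 1.43 log2 units at ZT2 to -1.02 at ZT10. Groups of 2 libraries are too small for a search for single libraries far from the rest.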

How the results depend on the processing

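Over the day, the differences of Cry1, Bhlhe41 and Ciart kept their direction and passed under every alternative that tested them. That of Cry2 did so under all but 1. The stricter filter (at least 1 CPM in at least 12 libraries) left out Bhlhe41 and Ciart, so neither was tested in that fit. Of 1817 values of single genes under the alternatives, 1731 kept direction and side of the threshold. Another 39 lost and 26 gained the call, and 21 turned direction. Amplitudes within a genotype and interaction spreads are never negative, so they could not turn direction. Many of the fits shared all but 1 library with the main fit, so they are not independent of it. Where a value changed, the cause was not tested. Without the 5 HepKO libraries of low depth, fewer samples were fitted: 2886 genes were called over the day, 165 at ZT2, 137 at ZT6, 488 at ZT10, 612 at ZT14, 187 at ZT18, 80 at ZT22, 43 for the interaction, 173 for a HepKO rhythm and 66 for a rhythm difference. In that fit Cry2 over the day was 0.29 and no longer passed, like the rhythms of Cry2 in HepWT (0.32) and of Bhlhe41 (2.101) and Ciart (2.43) in HepKO. Cry2 at ZT2 (0.75) and Bhlhe41 at ZT6 (-2.97) were lost, and Cry2 at ZT10 turned to 0.026 and Bhlhe40 at ZT22 to -0.20.

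With DESeq2, 536 genes were called at ZT2, 451 at ZT22, 555 for the interaction and 571 for a rhythm difference. The Ciart interaction (2.13), the Bhlhe40 rhythm difference (-0.65) and Ciart at ZT22 (-1.82) passed in that fit. With no filter on low counts, 1246 genes were called at ZT2, 1691 at ZT6, 2030 at ZT10, 1314 at ZT18 and 1000 at ZT22. There were 1655 for the interaction and 1367 for a rhythm difference. The members' values hardly moved in that fit, while many adjusted p fell steeply. For the Bhlhe40 rhythm difference it was 1.66e-20, against 0.176 in the main fit (edgeR). Whether the spread between libraries is well estimated with rows of few counts kept was not tested, so calls gained there are no added evidence. At single times Cry2 (0.50), Bhlhe40 (0.52) and Ciart (-1.42) then passed at ZT6, Bhlhe41 (-2.22) at ZT18 and Ciart (-1.81) at ZT22. The interactions of Cry2 (0.79) and Ciart (2.20), the HepKO rhythm of Bhlhe40 (0.36) and the rhythm differences of Cry2 (-0.29), Bhlhe40 (-0.64) and Ciart (-1.28) passed there, as did that of Bhlhe40 with a 12 h harmonic (-0.69). The rhythm difference of Bhlhe41 turned positive with DESeq2 (0.10), with the 12 h harmonic (0.14) and with HepWT replicate 1 libraries alone (0.12).

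With HepWT replicate 1 libraries alone, 188 genes were called at ZT2, 2269 for a HepWT rhythm and 165 for a rhythm difference. The Bhlhe40 interaction (2.57) and Bhlhe41 at ZT6 (-2.16) were lost, and Cry2 at ZT14 (-0.0043) and Bhlhe40 at ZT22 (-0.049) turned direction. With HepWT replicate 2 libraries alone, the counts were 867 at ZT2, 380 at ZT22, 2640 for a HepWT rhythm and 149 for a rhythm difference. The Bhlhe40 interaction (2.30) and the Cry2 rhythm in HepWT (0.23) were lost. Lost too were Bhlhe40 at ZT10 (-0.91) and Bhlhe41 at ZT6 (-1.94) and ZT22. Cry2 at ZT10 turned to 0.079, and Cry2 at ZT6 (0.62) and ZT14 (0.56) gained the call.

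With each library left out in turn, calls ranged from 80 to 453 at ZT2, 200 to 954 at ZT6, 551 to 1416 at ZT10, 844 to 1366 at ZT14, 244 to 716 at ZT18, 108 to 285 at ZT22 and 171 to 301 for a rhythm difference. The Ciart interaction ranged from 2.12 to 3.21, the Cry2 rhythm in HepWT from 0.26 to 0.42, and the rhythm differences from -0.40 to -0.24 (Cry2), -0.73 to -0.51 (Bhlhe40) and -0.41 to 0.19 (Bhlhe41). Cry2 ran from -0.17 to 0.079 at ZT10 and from -0.0029 to 0.57 at ZT14, Bhlhe40 from -0.20 to 0.40 at ZT22, and the Ciart mean in HepWT from 5.02 to 6.75 CPM. In some of these fits Ciart at ZT6 (-1.41) and ZT22 (-1.80) and Bhlhe41 at ZT18 (-2.21) gained the call. So did the Cry2 rhythm difference (-0.40) in 1 fit. Arntl over the day, not called in any fit, ran from -0.0106 to 0.12 and was -0.14 with time as a 24 h wave.

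The deviations of same-numbered libraries correlated at over 0.1 in 12 of 66 pairs of groups (median 0.0054), with a median of 0.17 within HepWT, -0.016 within HepKO and -0.013 between genotypes. Every pair would have to pass 0.1 for the numbers to pair the samples, so the numbers were not used as a pairing, though HepWT libraries of 1 number deviated together in part. A replicate block gave 4597 calls over the day and 259 rhythm differences, and changed none of the members' calls. The block was 1 term shared by both genotypes, so it does not describe a deviation present in HepWT alone. Over the day it gave Cry1 at 1.71, Cry2 at 0.30, Bhlhe41 at -2.98 and Ciart at -2.26. The Bhlhe41 value includes the 0 counts of ZT22, as did that of the main fit (-2.98). Depth limits Bhlhe41 and Ciart most: their HepKO libraries held 0 to 21 and 0 to 48 counts.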
